A study of Mus musculus with 6 samples.

Results

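The genes described here encode the subunits of the cytokines interleukin (IL)-12, IL-23, IL-27 and IL-35 and the chains of their receptors, 10 genes of the 41388 in the table. There are 5 ligand subunit genes, Il12a, Il12b, Il23a, Ebi3 and Il27, and 5 receptor genes, Il12rb1, Il12rb2, Il23r, Il27ra and Il6st. They were selected on their names, but the family was chosen from these libraries with the differences between the genotypes already known, so their values in that contrast are given as a description. Standard errors and intervals show the spread, no p-value is reported for them, and counts of members past a threshold describe a fit and support nothing. RNA-Seq libraries came from 3 WT and 3 Irf1-/- cultures of T cells on a C57BL/6 background, all kept for 2 days under Th9 conditions, that is with IL-2, IL-4 and TGF-β, and all with IFN-γ. Th9 cells are helper T cells that make IL-9, and IRF1 is a transcription factor that IFN-γ induces. Irf1-/- mice lack the factor in every cell type. The WT mice were bought and the Irf1-/- mice were bred by the authors, and whether any were littermates was not stated. Neither a culture without IFN-γ nor an untreated control belongs to these samples, so that both genotypes share the cytokine. The study describes the 3 samples of a genotype as independent and biological.

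The IL-12 family consists of heterodimers that share chains. IL-12 pairs p35, the product of Il12a, with p40, the product of Il12b. IL-23 pairs p19 (Il23a) with the same p40, IL-27 pairs p28 (Il27) with EBI3, and IL-35 pairs p35 with EBI3. Myeloid cells are the best known source of IL-12, IL-23 and IL-27, and IL-35 has been described in regulatory T and B cells. The receptor chains are shared as well. IL-12Rβ1 serves IL-12 with IL-12Rβ2 and IL-23 with IL-23R, whereas IL-27 binds IL-27Rα with gp130, the product of Il6st, which also serves IL-6 and its relatives. In T cells IL-12 acts mainly through STAT4 and favours Th1 cells, and IL-23 acts through STAT3 and maintains Th17 cells. IL-27 restrains effector T cells and promotes IL-10 in them.

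The promoters of Il12a and Il12rb2 are shown because these are a ligand gene and a receptor gene that differ in the values below, the first low in Irf1-/- cells and the second not. The windows are from RefSeq (GRCm38.p6), run 5′ to 3′ on the strand of the gene from 250 bases before to 50 bases after a transcription start, and are in lower case except for a match to a STAT motif in capitals.
Il12a first start, chr3:68690394-68690693, + strand: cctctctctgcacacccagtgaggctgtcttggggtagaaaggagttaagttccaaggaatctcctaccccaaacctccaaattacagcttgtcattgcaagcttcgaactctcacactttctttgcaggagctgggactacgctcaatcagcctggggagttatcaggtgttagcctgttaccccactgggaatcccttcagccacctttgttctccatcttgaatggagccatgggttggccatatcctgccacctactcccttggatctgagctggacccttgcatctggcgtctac
Il12a second start, chr3:68691174-68691473, + strand: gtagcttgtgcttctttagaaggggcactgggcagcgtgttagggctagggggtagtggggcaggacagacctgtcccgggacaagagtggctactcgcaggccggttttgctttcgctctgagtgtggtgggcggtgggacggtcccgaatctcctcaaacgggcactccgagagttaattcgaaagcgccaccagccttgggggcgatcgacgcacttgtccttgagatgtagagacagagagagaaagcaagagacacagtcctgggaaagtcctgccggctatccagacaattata
Il12rb2, chr6:67376139-67376438, - strand: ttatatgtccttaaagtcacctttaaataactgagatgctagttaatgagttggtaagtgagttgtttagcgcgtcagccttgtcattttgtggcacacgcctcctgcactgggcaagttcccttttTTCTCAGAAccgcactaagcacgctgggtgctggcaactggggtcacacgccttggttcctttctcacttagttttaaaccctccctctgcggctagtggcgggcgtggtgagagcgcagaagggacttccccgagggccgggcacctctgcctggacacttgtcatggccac
Of the 10 genes, 6 had an entry among the RefSeq promoter windows, 7 windows in all, and Il12a was listed with both of the starts above. Il12rb1, Il27ra, Il27 and Il23a had no entry. An IRF motif, GAAANNGAA on either strand, was found in none of the 7 windows, and over all 32851 windows of 27025 genes 8.56% held it. The STAT motif TTCNNNGAA, which reads the same on both strands, was in 8.30% of all windows and in 1 of the 7. It lay in the Il12rb2 window as TTCTCAGAA, from 123 to 115 bases before the start. A shorter IRF motif, AANNGAAA, was in 23.9% of all windows. It occurred 3 times in the Il23r window, once as AAATGAAA from 78 to 71 bases before the start, and 1 time in the Il6st window, and not in those of Il12a, Il12b, Ebi3 or Il12rb2. Such matches describe the letters of the window, and a window without a match says nothing of sequences farther away.

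The values are normalized counts, that is, reads per gene scaled by the library's size factor. Libraries held from 5639788 to 13348230 reads on genes, of which replicate 3 of each genotype held at least 12423511 and the other 4 at most 6611536. A count of 3 reads, the limit that a count of 0 allows, was worth between 1.84 and 4.16 normalized counts. Irf1 itself had 2660 to 2968 in WT and 1476 to 1780 in Irf1-/- libraries, so that reads on the gene stayed at 58.4% of the WT mean; counts per gene do not show which exons they came from. WT replicates 1 and 2 held the Y-linked transcript Ddx3y (849 and 939) and the other 4 libraries Xist (at least 16973), although the methods speak of sex-matched mice. Sex is thus partly confounded with genotype. Markers of CD4 T cells summed to 13021 to 13261 in WT and 12545 to 12982 in Irf1-/- libraries, the NK cell genes Ncr1 and Klrb1c were at 0 in every library and the third, Klre1, at no more than 2.39 normalized counts, and the myeloid list of 10 genes summed to 141 to 292 in WT and to 64.5 to 1100 in Irf1-/- libraries. Its highest sum was in Irf1-/- replicate 2, where 8 of the 10 genes peaked. Mpeg1, the only gene of this list that was called, was lower in Irf1-/- cells (93.7 and 45.9, adjusted p = 0.0367 by limma). Of the 6 CD4 T cell markers, Cd3e was the 1 called, also lower in Irf1-/- cells (1624 and 1317, adjusted p = 0.00535 by limma).

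Among the ligand subunits, Il12a was 12.8-fold lower in Irf1-/- cells, from the mean difference of log2(normalized count + 1). WT replicates 1, 2 and 3 had normalized counts of 446, 494 and 384, against 37.0, 36.1 and 28.1 for the Irf1-/- replicates in the same order. Every WT library was thus above every Irf1-/- library, and replicate 3 was the lowest of both genotypes. The means were 441 ± 55.1 (SD, n = 3) and 33.7 ± 4.88 (SD, n = 3), and the Irf1-/- cells kept 7.64% of the WT level. These values rested on 1393 reads in WT and 101 reads in Irf1-/- libraries. On that scale the change was -3.67 (standard error 0.144, 95% interval -3.99 to -3.35), and of the 11379 genes tested 14 had a lower value. It was -3.65 in replicates 1 and 2 and -3.73 in the pair of replicates 3, a pair that was set apart after seeing the data, here and for the other members. Without Irf1-/- replicate 2, the library with the most myeloid transcripts, it was -3.73, and in the 4 libraries with Xist, which leave 1 WT library, -3.48. The gene (ENSMUSG00000027776, GRCm38) spans chr3:68690644-68698547 on the + strand, and no exon of another gene overlaps its exons. In these bulk libraries fewer cells that make a transcript and less RNA per cell cannot be told apart.

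Ebi3 (chr17:55952640-55957022, + strand), whose product pairs with p35 in IL-35 and with p28 in IL-27, was at similar levels in most libraries. Its normalized counts were 48.7, 43.3 and 52.9 in WT and 47.8, 52.7 and 88.2 in Irf1-/- replicates 1, 2 and 3. The ranges overlapped, and a single library, Irf1-/- replicate 3, stood above the rest. The means were 48.3 ± 4.80 (SD, n = 3) and 62.9 ± 22.1 (SD, n = 3), with a log2 difference of 0.33 (standard error 0.229, 95% interval -0.18 to 0.83), and of 0.06 without Irf1-/- replicate 3. The antisense gene Gm16712 shares 270 exon bases with Ebi3, 23.4% of its exon length, and had a mean of 27.5 normalized counts. The libraries were made with a NEBNext Ultra RNA kit, which does not mark strand, so reads of this stretch cannot be assigned to either gene.

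The other 3 ligand genes were near or under the limit of detection. Il23a, the p19 subunit of IL-23, had 2, 3 and 6 reads in WT and 5, 6 and 13 in Irf1-/- libraries, which made 2.50, 3.61 and 3.69 against 5.97, 8.32 and 8.31 normalized counts. Its ranges did not overlap, but with a mean of 5.40 it was below the minimum of 10 for a test. Il12b, the p40 subunit that both IL-12 and IL-23 need, had no read in WT cells and 1 read in all in Irf1-/- cells, in replicate 2. Il27, which encodes p28, had no read in WT cells and 1 read each in Irf1-/- replicates 1 and 2. No difference could be detected for either gene at this depth. The partners that p35 needs for IL-12 and that EBI3 needs for IL-27 were therefore not detected above the limit in any of the 6 libraries, whereas both genes of IL-35 were. Irf1-/- replicate 2, which held the only Il12b read, also had the most Lyz2 (559 against 7.03 to 134 elsewhere), a lysozyme of myeloid cells, and the most Il6 (40.2 against at most 8.42). The part of myeloid cells in these reads was not tested.

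**Figure D1:**
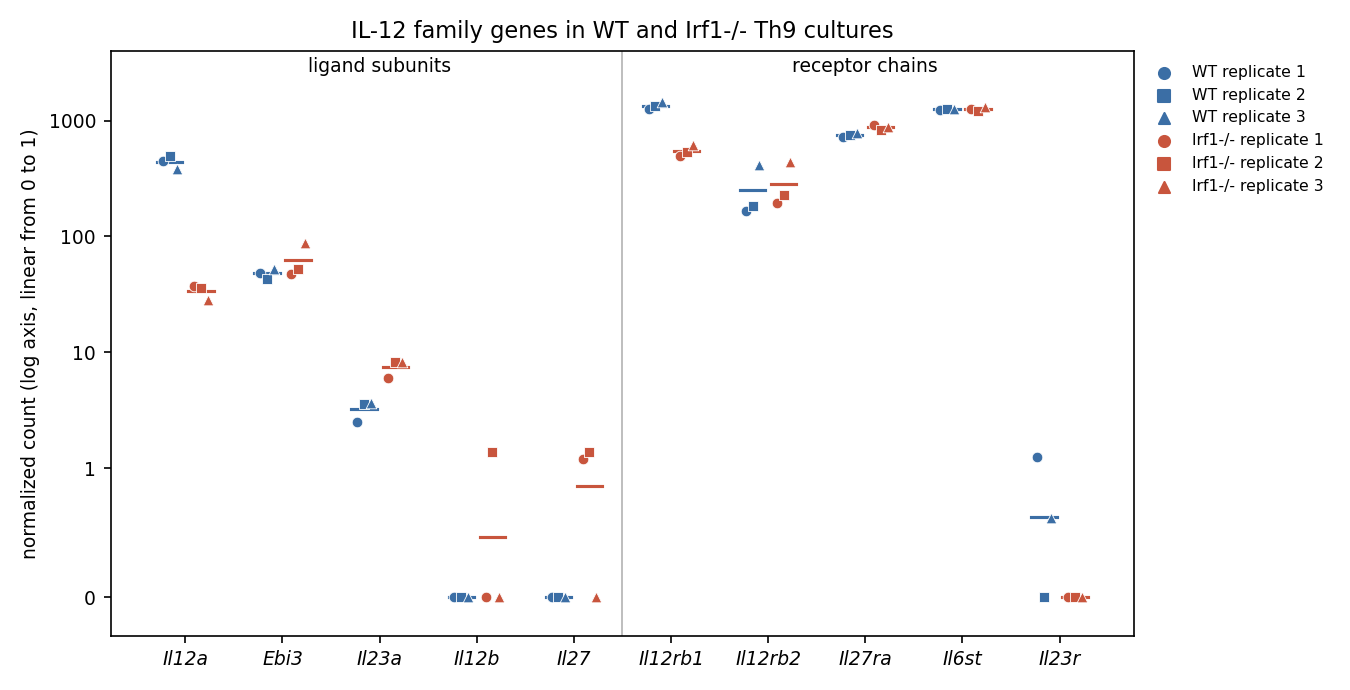
Normalized counts of the 10 IL-12 family genes in the 6 libraries, on a log axis that is linear from 0 to 1; blue symbols are WT and red symbols Irf1-/- libraries, the symbol's shape gives the replicate and the bar is the mean of 3. Il12a and Il12rb1 separate the genotypes with WT on top, the 3 Il27ra values of Irf1-/- cells sit just above those of WT cells, Il12rb2 is highest in replicate 3 of both genotypes, and Il12b, Il27 and Il23r lie at or below 1.39.

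Of the receptor genes, Il12rb1, the chain shared by the receptors for IL-12 and IL-23, was lower in Irf1-/- cells. WT replicates 1, 2 and 3 stood at 1259, 1322 and 1436 normalized counts and their Irf1-/- counterparts at 498, 538 and 613. The genotypes did not overlap, and within both of them replicate 1 was the lowest and replicate 3 the highest. The mean was at 41.0% of WT in Irf1-/- cells (1339 ± 89.5 and 549.6 ± 58.4, SD, n = 3), a log2 change of -1.29 (standard error 0.0834, 95% interval -1.47 to -1.10). A lower value was found for 115 of the 11379 genes tested. It was -1.32 in replicates 1 and 2, -1.23 in the pair of replicates 3 and -1.39 among the 4 libraries with Xist. Il12rb1 (ENSMUSG00000000791) spans chr8:70808449-70821424 on the + strand.

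Il12rb2 (chr6:67291318-67376188, - strand), the signalling chain that IL-12 needs beside IL-12Rβ1 and that is found mainly on activated and Th1 cells, differed more between replicates than between genotypes. WT replicates 1, 2 and 3 had 166, 183 and 410.0 normalized counts and Irf1-/- replicates 1, 2 and 3 had 195, 227 and 435. Replicate 3 was the highest of each genotype by far, and the ranges overlapped. The means were 253 ± 136 and 286 ± 130.5 (SD, n = 3), and the log2 difference was 0.21 with a 95% interval of -0.55 to 0.97, wide enough to include a substantial change either way. Within replicates 1 and 2 the difference was 0.27 and between the replicates 3 it was 0.09. The difference turned to -0.61 among the 4 libraries with Xist, whose only WT library is replicate 3, the highest of WT. It was -0.55 after adjustment for the Y-linked level, where replicate 3 is the only WT library without Ddx3y. Stat4, which transmits the IL-12 signal, was also highest in replicate 3 of each genotype, at 229 in WT and 248 in Irf1-/- cells against 145 to 168 elsewhere. A further limit is that 1519 exon bases of Il12rb2, 40.0% of its exon length, are shared with Serbp1 on the other strand, whose normalized count lay between 11836 and 13833. Without strand, reads of Serbp1 cannot be told apart from those of Il12rb2 there.

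Il23r, the chain that IL-23 needs beside IL-12Rβ1, had 1 read each in WT replicates 1 and 3 and none in the other 4 libraries, all under the limit of 3 reads. It lies 46743 bases from Il12rb2 on chromosome 6. So the specific chain was not detected above the limit, while the shared chain Il12rb1 was among the more abundant genes.

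Il27ra (chr8:84030294-84042589, - strand), the specific chain of the IL-27 receptor, was slightly higher in Irf1-/- cells. Its normalized counts were 723, 747 and 779 in WT and 912, 829 and 877 in Irf1-/- replicates 1, 2 and 3. The ranges did not overlap, yet the gap between them was smaller than the range within the Irf1-/- cultures. The means were 749.5 ± 28.5 and 873 ± 41.6 (SD, n = 3), a log2 difference of 0.22 (standard error 0.0631), and Irf1-/- cells had 116% of the WT level. The difference was 0.16 in the 4 libraries with Xist, 0.16 after adjustment for the Y-linked level, 0.24 in replicates 1 and 2 and 0.17 in the pair of replicates 3. Il6st (chr13:112464070-112510086, + strand), which encodes gp130, did not differ beyond its spread. It had 1237, 1264 and 1263 normalized counts in WT and 1258, 1197 and 1321 in Irf1-/- replicates, and its log2 difference was 0.0040 with a 95% interval of -0.12 to 0.13.

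Of the 10 members, 6 had a mean of at least 10. Values of the genotypes did not overlap in 3 of these 6, Il12a, Il12rb1 and Il27ra, and in 40.5% of all 11379 genes tested. Since the family was picked with this contrast known, nothing is read from this count. The median log2 fold change was 0.11 over the 6 members and -0.0037 over all genes tested.

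Levels of different genes were compared per kilobase of exon. In WT cells Il12rb1 led with 326 ± 21.8 normalized counts per kilobase (SD, n = 3), followed by Il12a with 259 ± 32.4, Il27ra with 214 ± 8.17, Il6st with 113 ± 1.37, Il12rb2 with 66.7 ± 35.9 and Ebi3 with 41.8 ± 4.16. Il12rb2 and Ebi3 overlapped in range, from 43.7 to 108 and from 37.5 to 45.8, and the highest Il27ra value (223) came close to the lowest of Il12a (226). The levels of Il12rb2 and Ebi3 are less certain, since 40.0% and 23.4% of their exon lengths are shared with a gene on the other strand. The median of the tested genes was 65.2 in WT and 65.6 in Irf1-/- cells. In Irf1-/- cells Il27ra led with 249.8 ± 11.9, before Il12rb1 with 134 ± 14.2, Il6st with 113 ± 5.59, Il12rb2 with 75.3 ± 34.4, Ebi3 with 54.5 ± 19.1 and Il12a with 19.8 ± 2.87. Here Il12rb2 overlapped in range with both Il6st and Ebi3. Il12a thus moved from the second place to the sixth, and from above 84.1% of the tested genes to above 23.2% of them. Il12rb1 moved from above 87.8% to above 69.9%. Il23a was at 1.45 in WT and 3.35 normalized counts per kilobase in Irf1-/- cells, and Il12b, Il27 and Il23r were at less than 1 in both.

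**Figure D2:**
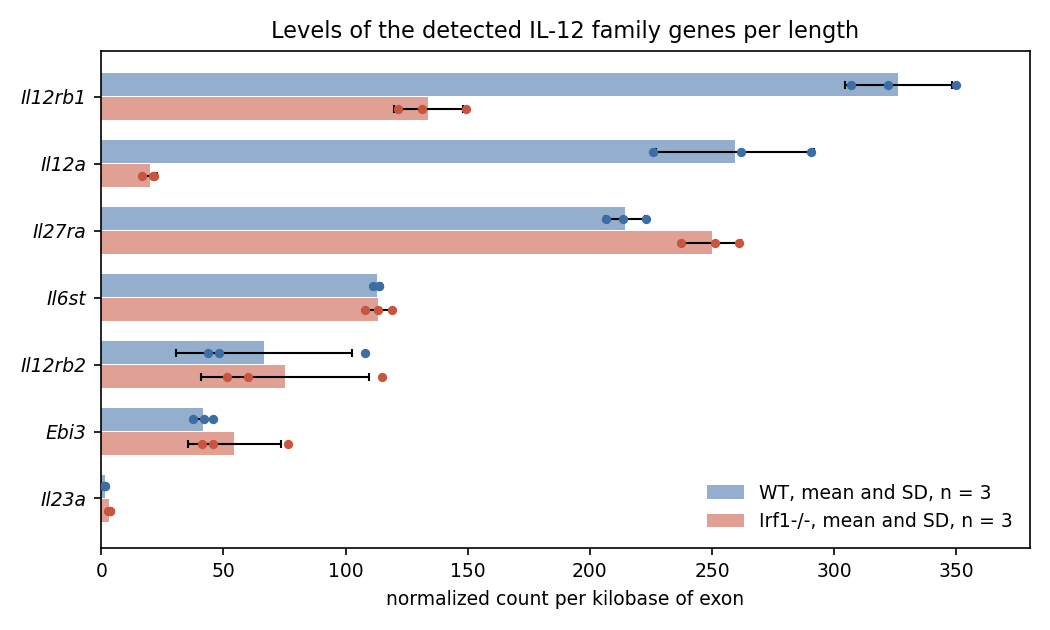
Normalized counts per kilobase of exon of the 7 members with the highest levels; bars are means of 3 libraries, lines the SD and points the libraries, blue for WT and red for Irf1-/-. The bars of Il12rb1 (326 and 134) and Il12a (259 and 19.8) shrink from WT to Irf1-/-, and those of Il6st (113 and 113) have the same length.

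Chains that pair in a receptor or a cytokine can be compared within a library, since a ratio of reads needs no size factor. The read ratios are given per library, and the differences between genotypes were computed on log2(normalized count + 1), which moves them slightly at low counts. For the IL-12 receptor, the reads on Il12rb1 per read on Il12rb2 were 7.59, 7.24 and 3.50 for WT replicates 1, 2 and 3, and 2.56, 2.37 and 1.41 for those of Irf1-/- cells. The ranges did not overlap, and in both genotypes replicate 3 had the lowest ratio. The difference of the mean log2 ratios was -1.50, with SDs of 0.62 in WT and 0.47 in Irf1-/- cells. It was -0.78 among the 4 libraries with Xist, in which replicate 3 is the only WT library. For the IL-27 receptor, reads on Il27ra per read on Il6st were 0.584, 0.591 and 0.617 in WT and 0.725, 0.693 and 0.664 in Irf1-/- replicates, a difference of 0.22 with SDs of 0.04 and 0.06. Here the order of the replicates was reversed between the genotypes. For the subunits of IL-35, reads on Il12a per read on Ebi3 were 9.15, 11.4 and 7.27 in WT and 0.775, 0.684 and 0.319 in Irf1-/- replicates. Il12a reads thus outnumbered Ebi3 reads in each WT library and were fewer in each Irf1-/- library, and the log2 ratios differed by -4.00, or by -3.67 among the libraries with Xist. These ratios carry the same contrast as the members' own values and are no separate evidence.

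**Figure D3:**
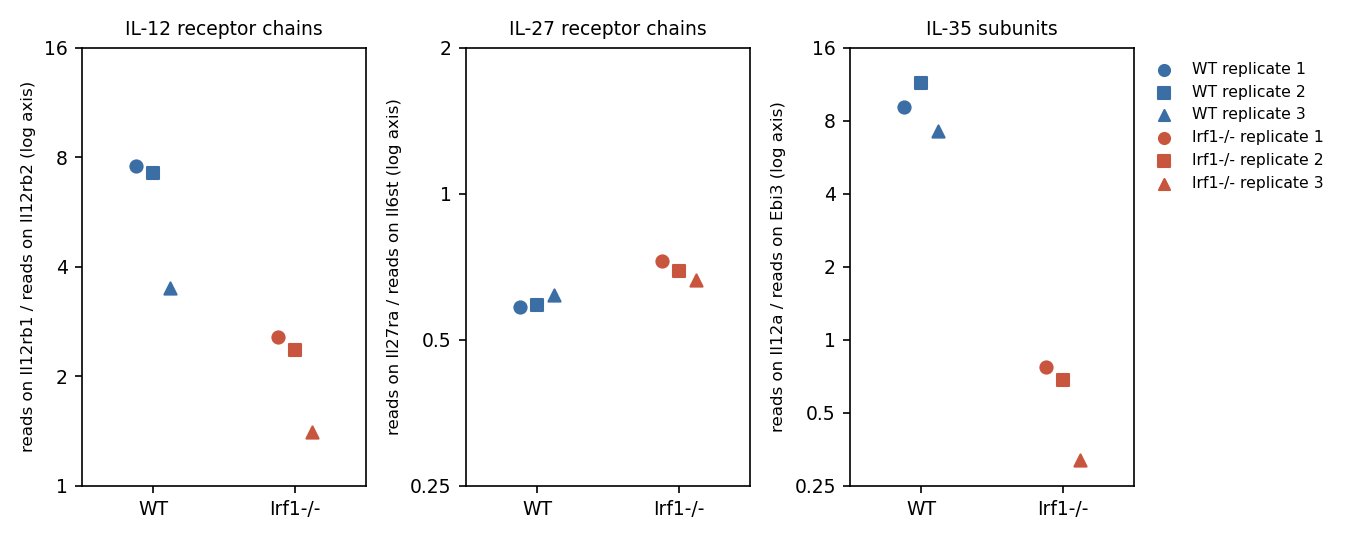
Reads on one chain per read on its partner in each library, on log axes, for the IL-12 receptor (left), the IL-27 receptor (middle) and IL-35 (right); blue symbols are WT, red symbols Irf1-/- and the shape gives the replicate. The ratio of Il12rb1 to Il12rb2 lies between 3.50 and 7.59 in WT and between 1.41 and 2.56 in Irf1-/- cells, and that of Il12a to Ebi3 falls from above 7 to below 1.

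The genes through which these receptors signal, and the genes that lie downstream of them, were followed in lists of 52 genes, of which 35 were tested. Leaving aside Il10 and Prdm1, which reached the minimum for a test through 1 genotype only, 6 of the other 33 were called lower in Irf1-/- cells, 7 higher and 20 in neither direction at a Benjamini-Hochberg adjusted p below 0.05 in limma. Over all 11379 genes tested, 12.4% were called lower and 11.4% higher. The lists were written with earlier results of these data known, so that their counts and p-values are not independent evidence. The median log2 fold change was 0.05 over the 33 and -0.0037 over all genes tested, and 4 of the 52 genes were at 0 in every library. Of the 5 kinase and STAT genes, Stat3, used by IL-23 and IL-27, fell from a mean of 4152 to 3193 normalized counts (log2 change -0.38, adjusted p = 0.00167 by limma). The kinases Jak1, Jak2 and Tyk2 and the IL-12 transducer Stat4 were not called, with log2 differences between 0.01 and 0.11. Of 5 inhibitors, Socs3, which binds gp130 and blocks its signal, rose from 189 to 462 (1.28, adjusted p = 7.2e-05 by limma). The phosphatase gene Ptpn6 fell from 3948 to 3059 (-0.37, adjusted p = 0.00306 by limma), and Socs1, Pias1 and Ptpn2 were not called.

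Of 12 Th1 genes downstream of IL-12 and IL-27, 10 were tested, 2 were called lower and 2 higher, with a median log2 change of -0.11, beside shares of 12.4% and 11.4% over all genes. Tbx21, the gene of the Th1 factor T-bet, fell from 1437 to 1115 (-0.36, adjusted p = 0.0108 by limma), and Eomes, a related T-box factor, from 39.5 to 11.5 (-1.86, adjusted p = 0.00869 by limma). Il18r1, a chain of the IL-18 receptor that IL-12 induces in Th1 cells, rose from 14.5 to 51.9 (1.85, adjusted p = 0.00188 by limma), and Runx3 rose by 0.23 on the log2 scale (adjusted p = 0.0172 by limma). Ifng, the cytokine most closely tied to IL-12, had 23.5 ± 6.11 and 19.4 ± 9.85 normalized counts (SD, n = 3) and was not called, nor were Il18rap, Gzmb, Ccl3, Ccl4 and Cxcr3. Of 7 Th17 genes downstream of IL-23, 3 were tested, of which 1 was called in each direction. The chemokine receptor gene Ccr6 fell from 191 to 73.2 (-1.34, adjusted p = 0.000588 by limma) and the nuclear receptor gene Rora rose from 172 to 261 (0.60, adjusted p = 0.0033 by limma), whereas Csf2 was not called and Il17a and Il22 had no read in any library.

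Of 9 IL-10-type and regulatory genes downstream of IL-27 and IL-35, 7 reached the minimum. Without Il10 and Prdm1, 1 of 5 was called lower and 2 higher, beside 12.4% and 11.4% over all genes, with a median of 0.10. Maf, the factor that drives Il10 in T cells, rose from 65.1 to 326 (2.31, adjusted p = 1.5e-05 by limma). Foxp3, the factor of regulatory T cells, rose from 182 to 337 (0.89, adjusted p = 5.8e-05 by limma). Cd274, the gene of PD-L1, which interferons induce, fell from 946 to 619 (-0.60, adjusted p = 0.00127 by limma). Ahr and Lag3 were not called. Il10 itself had 2, 3 and 5 reads in WT and 17, 27 and 40 reads in Irf1-/- replicates. It passed the minimum only through the Irf1-/- libraries and Prdm1, with means of 14.7 and 5.37 normalized counts, only through the WT libraries, so that their values are given with no call. Of 14 other cytokine and receptor genes of the gp130 family, 5 were tested and 1 was called. Clcf1, a gp130 cytokine, rose from 68.9 to 114 (0.71, adjusted p = 0.00875 by limma). Lif, at 3033 and 2877 the most abundant of them, was not called, nor were Osm, Il6ra and Il11ra1, and Cntfr and Il31ra had no read.

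In these lists, the calls of Socs3, Stat3, Ccr6, Maf and Foxp3 held in every alternative run, and that of Il18r1 in all but the minimum of 50, which neither it nor Eomes reached. The fit of the 4 libraries with Xist lost those of Ptpn6, Tbx21, Eomes, Runx3, Rora, Cd274 and Clcf1. It leaves 1 WT library, so that a call lost or gained there says little. After adjustment for the Y-linked level the calls of Tbx21, Runx3 and Clcf1 were lost, and those of Tbx21 and Runx3 also without a trend, without WT replicate 1 and without WT replicate 2. Runx3 further lost its call without Irf1-/- replicate 1 and without Irf1-/- replicate 2. Some genes not called above gained a call under other settings, among them Socs1 in the libraries with Xist and after adjustment for the Y-linked level. Lif gained one after that adjustment, and Ccl3 in replicates 1 and 2, without Irf1-/- replicate 2 and with a replicate block. Both Osm and Gzmb did so in replicates 1 and 2 and without WT replicate 3, and Gzmb also with a replicate block.

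**Figure D4:**
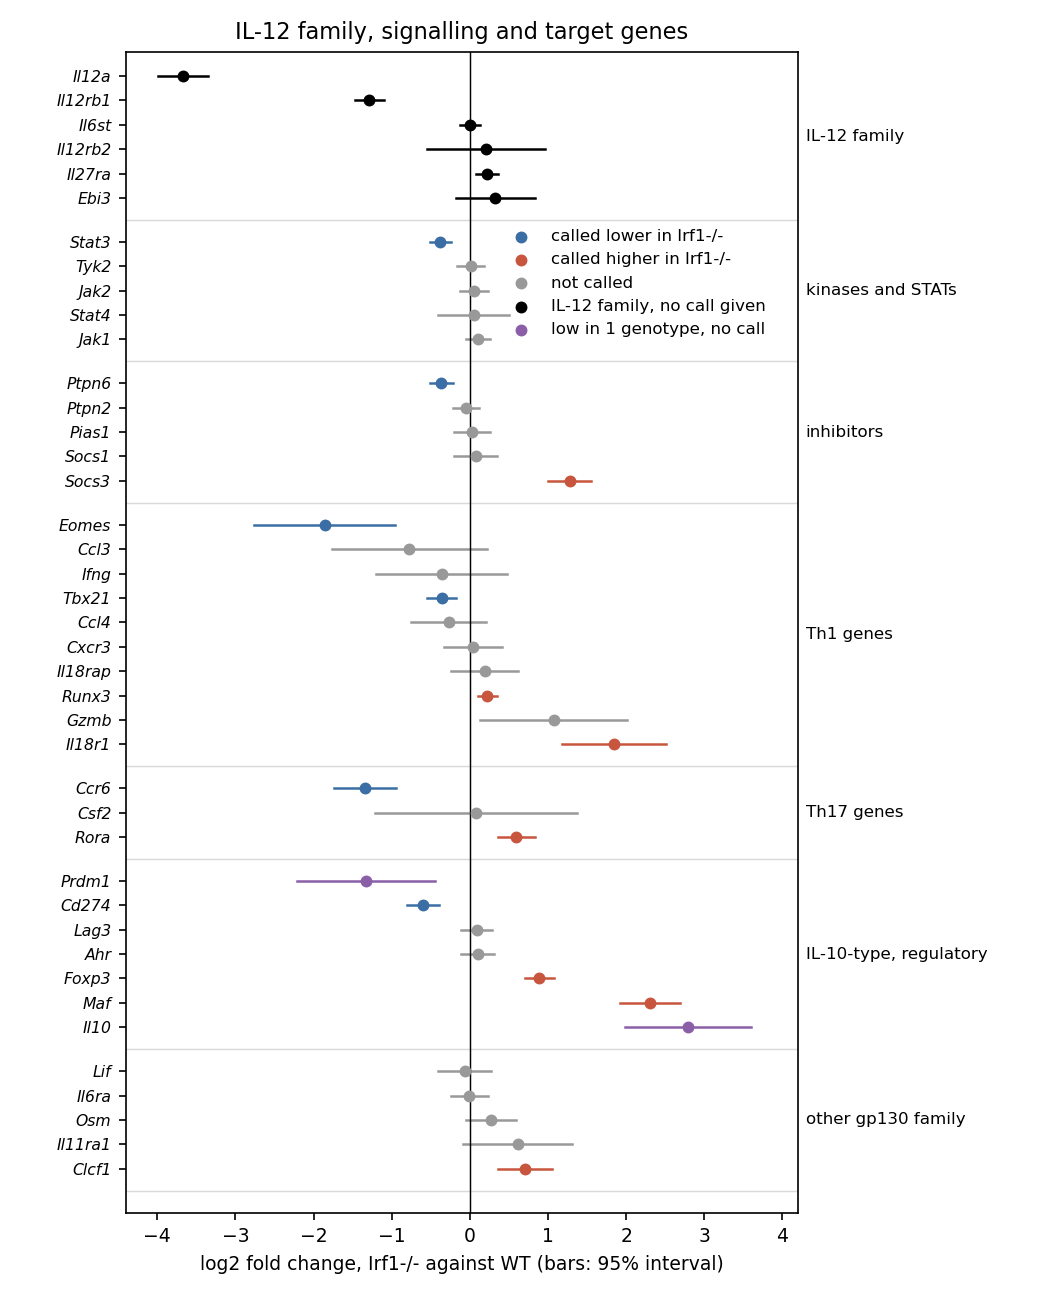
Log2 fold change of Irf1-/- against WT cells for the 6 tested members and the 35 tested genes of the lists, grouped by role; points are limma estimates, bars 95% intervals, and colours mark list genes called lower (blue), called higher (red) or not called (grey) at an adjusted p below 0.05, members (black) and the list genes low in 1 genotype (purple), both with no call. Il12a (-3.67) lies farthest to the left, and Maf (2.31) lies farthest to the right among the called list genes.

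For Il12a, Il12rb1 and Il27ra, the genes with the most similar profile were looked up by Pearson's r of log2 values over the 6 libraries, among 8224 genes with a mean of at least 100. Nearest to Il12a were Bcor (r = 0.999), Pspc1 (r = 0.999) and Rmdn3 (r = 0.998). Their own log2 changes, -0.56, -0.36 and -0.95, were smaller than that of Il12a. Nearest to Il12rb1 were Ablim1 (r = 0.999), Dtx3l (r = 0.998), a partner of an interferon-inducible ADP-ribosyltransferase, and Bdp1 (r = 0.998), with changes of -0.59, -1.48 and -0.34. Nearest to Il27ra were Vat1 (r = 0.994), Tinf2 (r = 0.990) and Timm44 (r = 0.987), with changes of 0.68, 0.23 and 0.18. The points fall into 2 genotypes and share their size factors, so that these values only describe the libraries.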

How the data were processed

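Poly(A) RNA of 3 WT and 3 Irf1-/- cultures was sequenced as single-end reads. Per the labels and the study's methods, the authors used STAR 2.4.0b for alignment to GRCm38, featureCounts for counting per Ensembl gene and DESeq2 1.12.3 for normalization. The deposited signal is a normalized count, a count of reads divided by the library's size factor. Whole reads were recovered for 100% of values within 0.001 reads, and no pair of libraries held the same counts. The library kit does not mark strand, and the treatment of reads that match several genes was not given in the sources used here.

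Symbols, coordinates and exon lengths came from the GENCODE annotation of GRCm38 by Ensembl identifier, and 40254 of 41388 genes were matched. Genes with a mean of at least 10 were tested with limma 3.58.1 in R 4.3.3, by lmFit and eBayes with a trend on log2(normalized count + 1), with Benjamini-Hochberg adjustment over 11379 genes and a threshold of 0.05. The fold change of low genes is understated on this scale. Intervals are at 95%, and the limit of detection is 3 reads, for counting error only.

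Of the lists as first written, 2 genes are not reported here, whatever their values. The members, the gene lists and the motifs were chosen with earlier results of these data known. Named genes are the members, the list and marker genes, Irf1, the sex-linked transcripts, overlapping genes and, for each member past the threshold, the 3 genes with the highest r. Alternatives were pseudocounts of 0.1 and 10, no filter, a mean minimum of 50, no trend, a replicate block, TMM factors or quantile normalization, edgeR 4.0.16 and DESeq2 1.42.0 on recovered reads, replicates 1 and 2 only, libraries with Xist only, a covariate for the Y-linked level and each library left out in turn. Fits were tested on simulated data. Replicate numbers are shared by the genotypes, but deviations from the genotype means correlated at 0.0922, 0.269 and 0.321 between samples of the same number over 11379 genes, not all above 0.1, and were not taken as pairs.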

Additional observations from a re-analysis of the deposited data

How the results depend on the processing

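The members were chosen with this contrast known, so their counts past the threshold describe the fits and support nothing. The count lower was 2, and the count higher, 1, was 0 with DESeq2, without a trend, in the libraries with Xist only and with a covariate for the Y-linked level, and ranged from 0 to 1 with each library left out; the Il27ra difference itself stayed between 0.16 and 0.27. Il12rb2 turned to -0.61 with Xist libraries only, which leave WT replicate 3 alone, and to -0.55 with the Y-linked covariate. It ranged from -0.14 to 0.62 with a library left out. Il6st turned to -0.0056, -0.016 and -0.027 with Xist libraries, the covariate and replicates 1 and 2 only, and ranged from -0.031 to 0.040 with a library left out. List genes called lower, 6 without Prdm1 and 7 with it, were 2 with Xist libraries only. The difference in the log2 ratio of Il12rb1 to Il12rb2 reads, -1.50, was -0.78 with Xist libraries only, an alternative added after seeing the data. The share of promoters with an IRF motif, 8.56%, was 23.9% with the shorter motif, which is a different pattern. The cause of the changes between fits was not tested. Over all genes, 1406 lower and 1293 higher calls became 807 and 928 without a trend, 403 and 407 with Xist libraries, 1099 and 856 with the covariate, 2090 and 1815 in replicates 1 and 2, 824 and 814 without WT replicate 1, 824 and 805 without WT replicate 2, and 895 and 810 without Irf1-/- replicate 2. With a replicate block they were 2116 and 1893, the value of Il12a was -3.67, and Ccl3 and Gzmb were added to the lists' calls. Each sample's deviations correlated best with its own number (0.0922, 0.269 and 0.321), a hint from the data and not from the design. Depth limits Il12b, Il27, Il23r and Il23a, whose reads per library were at most 13.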
